A study of Glycine max with 6 samples.

Results

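Of the 39712 genes found in at least 1 of 6 soybean nodule libraries, 68 genes (0.171%) were found in all 3 libraries from high-phosphate (HP) nodules and in none of the 3 from low-phosphate (LP) nodules. These members were chosen by their FPKM values (fragments divided by gene length and by library total), above 0 in every HP library and not listed in any LP library. The same LP and HP values chose them, so their levels are given as a description and were not tested. The LP plants grew with 25 μM KH2PO4 and the HP plants with 500 μM KH2PO4, concentrations taken from the methods of the study, whereas the sample labels state both numbers in mM. Both groups were soybean (Glycine max) genotype YC03-3 in hydroponic culture, inoculated with the rhizobium strain USDA110. Nodules over 3 mm were taken on day 25, and each library held nodules pooled from 2 plants, with 3 LP and 3 HP libraries of 1 genotype and 1 strain.

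Root nodules are organs in which rhizobia fix nitrogen inside plant cells, and phosphate supply limits their growth and their energy metabolism. A nodule also holds uninfected cells, vascular tissue and cortex, so a transcript of a rare cell type gives few fragments in RNA from whole nodules. In such RNA, fewer cells of a type and less RNA per cell cannot be told apart. The 4 leghemoglobin genes, whose products carry oxygen in infected nodule cells, summed to 77744 to 85346 FPKM in the LP libraries and to 72894 to 82024 FPKM in the HP libraries, so the tissue label fits these markers. The totals were 17716117 to 18909026 fragments per LP library and 17930721 to 18688901 per HP library, and each library listed between 37078 and 37478 genes. Summed over the treatment, the LP libraries had the larger total, with 55418778 fragments against 54815356 in the HP libraries. The median listed gene nevertheless had fewer fragments at LP, 343 over the LP libraries against 383 over the HP libraries by the smallest fit. The larger LP total therefore does not mean deeper coverage of a typical gene.

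All 68 genes lay close to the limit of detection. Their mean HP level had a median of 0.0958 FPKM and ran from 0.0195 to 0.606 FPKM, and none reached a mean of 1 FPKM. The FPKM values could be turned back into whole fragments, because each is a whole number of fragments divided by a whole gene length and by the total of its library. Over the 3 HP libraries the members had 3 to 27 fragments each, with a median of 5, and 478 in all. In 35 members the HP sum was 5 fragments or fewer, and in 14 it was 10 or more. In 56 members at least 1 HP library held a single fragment, and in 7 every HP library held a single fragment. These fragment numbers are the smallest that fit a whole length. They are the true ones for the 47 members whose gene length is over 50% of the gene's span. For the other 21 the fragments and the length could both be a multiple. Among the genes named here, the ones open to this are Glyma.01G024400, Glyma.03G194900, Glyma.05G056200, Glyma.05G107600, Glyma.06G031400, Glyma.06G073500, Glyma.08G186100, Glyma.12G162600, Glyma.17G207700, Glyma.17G234400 and Glyma.20G027700.

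**Figure D1:**
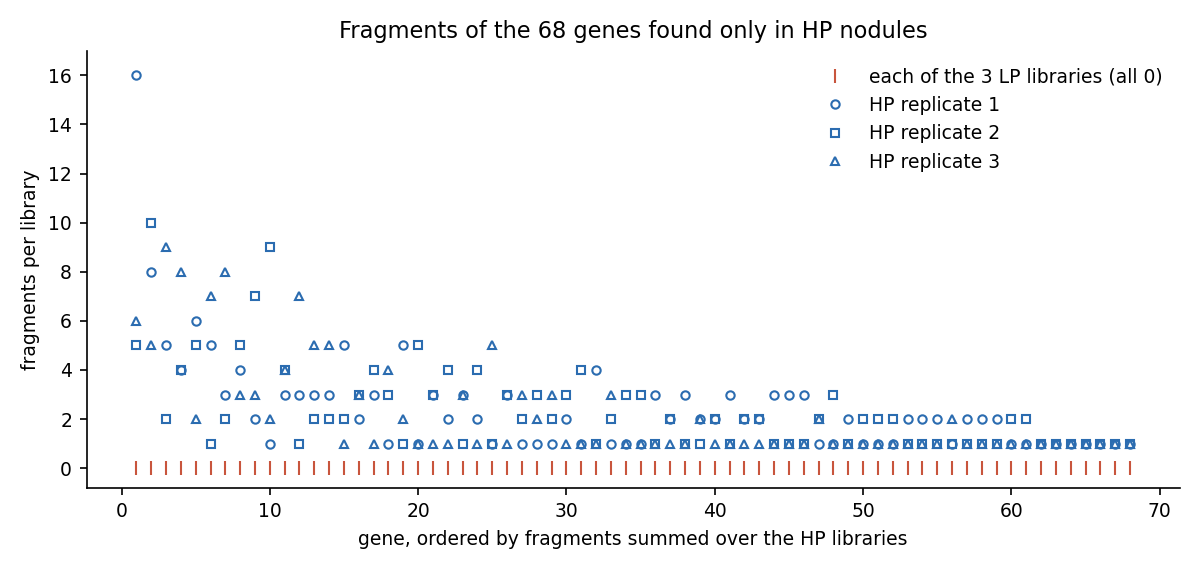
Fragments per library (vertical axis) of the 68 genes, ordered along the horizontal axis by their sum over the HP libraries. Red ticks stand for the 3 LP libraries, all at 0, and open blue symbols for the 3 HP replicates, which reach 16 fragments in the first gene and are at 1 for the last 7.

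The rule gives every member a fragment in each HP library, and the sums over all members were similar between these libraries. All members together had 167 fragments in HP replicate 1, 161 in HP replicate 2 and 150 in HP replicate 3. The highest fragment number lay in HP replicate 1 alone for 18 members, in HP replicate 2 alone for 19 and in HP replicate 3 alone for 13, and 18 members shared it between libraries. Within a member the HP replicates differed widely, with an SD of 48.5% of the mean at the median and up to 110.4%. The lowest SDs, near 2%, belong to members with 1 fragment in every HP library, where the FPKM values differ only by the total of the library.

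A fragment number of 0 in 3 LP libraries sets a limit and not an absence. With 3 fragments over the LP group as the floor, the limit on the LP level was 0.0134 to 0.291 FPKM, depending on the length of the gene, with a median of 0.0430 FPKM. Against that floor, and with the HP sum taken as measured, the LP level was at least 3-fold lower for 14 of the 68, those with 10 or more HP fragments. The folds given for single members are bounds of this kind and leave out the counting error of the HP sum. They also leave out that the members were picked for having no LP fragment, so they describe the counts and were not tested. For the 7 members with 3 HP fragments both groups lie at the floor, and no fold is given. These limits and the intervals of fragment sums (95%, Poisson) cover counting error only. The limits and folds use the library totals, although the median gene had fewer fragments at LP than at HP.

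By the smallest fit, the member with the most fragments was Glyma.07G059000, on the plus strand of chromosome 7 (5275565 to 5277510 of the Wm82.a2.v1 assembly, as are all positions here). It had 0 fragments in every LP library, against 16, 5 and 6 in the HP libraries, or 0.471, 0.149 and 0.172 FPKM. HP replicate 1 thus held 59.3% of its 27 fragments (interval of the sum 17.8 to 39.3). Against the floor, and with the HP sum taken as measured, its LP level was at least 9.10-fold lower, with a limit of 0.0290 FPKM.

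Glyma.02G054200, on the minus strand of chromosome 2 (4915245 to 4917897), came next with 23 fragments, and no HP library held most of them. It had no fragment in the LP libraries, against 8, 10 and 5 fragments in the HP libraries (0.312, 0.395 and 0.190 FPKM), at least 7.75-fold lower at LP. By the smallest fit, only 4 other members had at least 3 fragments in every HP library. Of these, Glyma.17G207700 had no LP fragment, against 4, 4 and 8 at HP, at least 5.39-fold lower, although its length of 3019 bases in a span of 17743 leaves its fragments open to a multiple of up to 5. Glyma.04G156100 had none at LP, against 4, 5 and 3 at HP, and Glyma.15G142100 none at LP, against 3, 4 and 4 at HP.

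In several other members with many fragments, 1 HP library held most of them. Glyma.20G096700 had no LP fragment, against 1, 9 and 2 in the HP libraries, so that HP replicate 2 held 75% of them. Glyma.U007900, on the unplaced scaffold_195, had none at LP, against 3, 1 and 7 at HP. Glyma.18G244600 had none at LP, against 3, 2 and 8, and Glyma.05G107600 none, against 5, 2 and 9, so in these 3 genes HP replicate 3 was the highest. Glyma.02G051300 had none at LP, against 2, 7 and 3 at HP, with HP replicate 2 the highest. Glyma.20G042000 was more even over HP replicates 1 and 2, with none at LP, against 6, 5 and 2 at HP.

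FPKM divides by length, and short genes stood among the highest. Of the 12 members with the highest FPKM, Glyma.02G054200, Glyma.04G156100 and Glyma.07G059000 were longer than the median member and the other 9 shorter, by the smallest length that fits. The lengths of Glyma.06G031400, Glyma.06G073500, Glyma.08G186100 and Glyma.12G162600 could be multiples of these. Glyma.03G263300, a gene of 1 exon and 299 bases on chromosome 3 (45642815 to 45643113), had 0 FPKM in all LP libraries, against 0.551, 0.373 and 0.895 FPKM in the HP libraries, from 3, 2 and 5 fragments. It was the only member with a mean HP level above 0.5 FPKM. Glyma.12G162600, of 186 bases by the smallest fit, followed with 0 FPKM at LP, against 0.591, 0.300 and 0.288 FPKM at HP. By that fit these are 2, 1 and 1 fragments. Glyma.15G142100 had 0 FPKM at LP, against 0.259, 0.351 and 0.337 FPKM at HP, the smallest relative spread among the members with more than 8 fragments by the smallest fit. Glyma.08G186100 had 0 FPKM at LP, against 0.269, 0.182 and 0.436 FPKM at HP. Glyma.16G115000 had 0 FPKM at LP, against 0.418, 0.170 and 0.0814 FPKM, and Glyma.06G073500 had 0 FPKM at LP, against 0.143, 0.218 and 0.209 FPKM at HP.

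At the other end, Glyma.03G128100, Glyma.13G213900, Glyma.17G234400, Glyma.02G085800, Glyma.01G024400, Glyma.03G194900 and Glyma.20G027700 had 1 fragment in each HP library by the smallest fit, which is open to a multiple for 4 of the 7. Their mean HP levels ran from 0.0195 to 0.0978 FPKM, and a single LP fragment would have taken each of them out of the group.

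More genes lay just outside the rule than inside it, most of them with few fragments as well. A total of 109 genes were found in all HP libraries and had 1 fragment at LP, with a median of 7 fragments at HP. Another 183 genes were found in 2 HP libraries and no LP library, with a median of 3 fragments, against 5 in the 68. The genes named next are not typical of these. They had the lowest LP values among genes with the highest HP means, out of those found in all HP libraries and exactly 1 LP library. Glyma.08G249200 had 1, 0 and 0 fragments in the LP libraries, against 11, 16 and 5 in the HP libraries, more at HP than any of the 68 by the smallest fit. Glyma.20G188000 had 0, 2 and 0 at LP, against 24, 5 and 8 at HP. Glyma.05G121900, with 0, 1 and 0 at LP, against 7, 11 and 5 at HP, had the same HP sum of 23 as Glyma.02G054200 by the smallest fit. Glyma.10G163100 had 0, 0 and 1 at LP, against 4, 6 and 5 at HP, and Glyma.17G062700 had 0, 0 and 1 at LP, against 7, 7 and 3 at HP. The numbers of Glyma.05G121900 and Glyma.17G062700 could be multiples, since their length is under 50% of their span.

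The share of genes at 0 in LP nodules was lower where more fragments were found at HP. Among genes found in all HP libraries, 10.6% of the 66 genes with 3 fragments over the HP libraries had none at LP, as did 10.9% of the 138 genes with 5. The share was 1.33% at 8 to 10 fragments and 0.222% at 16 to 30, and 0 of 4135 genes with 31 to 100 fragments lacked LP fragments. In the opposite direction, 87 genes (0.219%) were found in all LP libraries and in no HP library. Of genes found in all LP libraries, 4.11% of the 73 with 3 fragments and 7.32% of the 164 with 5 had none at HP. There, 2.07% with 8 to 10 fragments and 0.556% with 16 to 30 had none at HP, and 6 of 4422 with 31 to 100 fragments (0.136%). The 2 groups differed in their upper range. By the smallest fit, HP sums of the 68 ended at 27 fragments, whereas 15 of the 87 had LP sums above 27. Gene lengths were unique for only 47 of the 68 and 49 of the 87, so some fragment sums here could be multiples. Mean levels do not depend on this fit. The highest HP mean of the 68 was 0.606 FPKM, whereas 10 of the 87 had a mean LP level of at least 1 FPKM. This difference was not tested, because the same values define both groups.

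**Figure D2:**
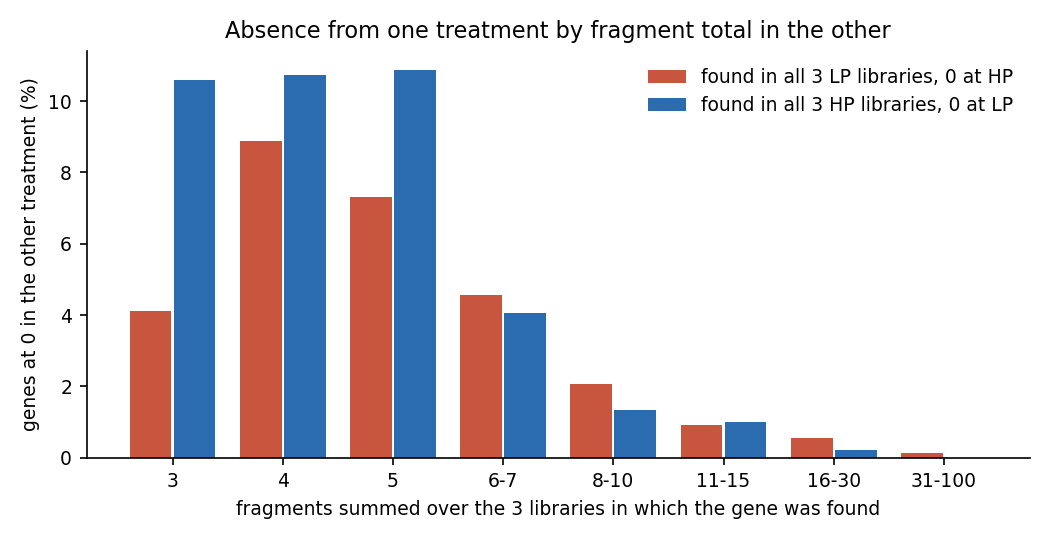
Percentage of genes at 0 fragments in the other treatment (vertical axis) among genes present in each of the 3 libraries of a treatment, by their fragment sum there (horizontal axis, smallest fit). Red bars are genes found in LP libraries and blue bars genes found in HP libraries, and the blue bars stand at 10.6% to 10.9% for 3 to 5 fragments and at 0.222% for 16 to 30.

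The members had few common features in the deposited annotation. Their gene length had a median of 1259 bases, against 1361 bases in the genes found only at LP and 1778 bases over all listed genes. These are the smallest lengths that fit. They were unique for 47 of the 68, 49 of the 87 found only at LP and 20519 of all 39712. For 14 of the 68 (20.6%) the length equals the span, as in a gene of 1 exon, against 13.6% of all listed genes. The strands were even, with 34 genes on each. The 66 members on chromosomes were spread over all 20, with 7 each on chromosomes 3 and 6 and 6 on chromosome 5. Per 1000 listed genes this was 3.8 on chromosome 3 and 0.507 on chromosome 7, which had the lowest rate. The remaining 2 members, Glyma.U007900 and Glyma.U027100, were the only listed genes of their scaffolds and had no neighbour.

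In 6 members the span overlapped another listed gene (8.82%, against 5.31% of all listed genes), each time on the opposite strand. Glyma.03G263300, Glyma.05G179600 and Glyma.10G235400 lay wholly inside their partner (4.41%, against 1.64% of all listed genes). All 3 were among the 12 members with the highest FPKM. Strand use in counting is not given in the sources used here, so fragments of the members and of the partners cannot be told apart. Glyma.03G263200, the partner of Glyma.03G263300, had 5.83, 5.83 and 5.38 FPKM in the LP libraries, against 8.30, 8.01 and 12.4 FPKM in the HP libraries, with HP replicate 3 highest for both genes. Its difference of -0.72 on the log2 scale was under 2-fold (standard error 0.17, adjusted p = 0.0213 from limma). Glyma.05G179500, the partner of Glyma.05G179600, averaged 0.744 ± 0.235 FPKM at LP and 0.917 ± 0.171 FPKM at HP (SD, n = 3 each), with overlapping values. Its lowest HP library, HP replicate 2, was the highest of Glyma.05G179600. Glyma.05G056300 overlaps 53.2% of the member Glyma.05G056200, which had no LP fragment, against 2, 2 and 1 at HP. This partner had 0.103, 0.0583 and 0.0579 FPKM in the LP libraries, against 0.401, 0.0611 and 0.664 FPKM in the HP libraries, so HP replicate 2 lay within the LP range. It was below the FPKM minimum of the test, and a fit with no minimum gave -1.20 with a standard error of 0.54 (adjusted p = 0.159 from limma).

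The genes next to the members were not used to choose them, so their LP and HP values could be tested. This holds less for the 6 neighbours that overlap a member, since fragments of the overlapping genes cannot be told apart. They were kept, and Glyma.10G235300 was the only one of them that passed the test described here. A total of 31181 genes reached 0.5 FPKM in at least 3 libraries and were fitted with limma on log2(FPKM + 0.1). A gene passed if its adjusted p was at most 0.05 and its levels differed 2-fold or more, which 7.73% of these genes did. None of the 68 members reached that minimum. The nearest listed gene on each side gave 130 neighbours, of which 87 could be tested. Of these, 6 were lower at LP (6.90%, against 4.39% of all genes tested) and 2 were higher (2.30%, against 3.34% of all genes tested), shares near those of all genes. The median difference of the neighbours was -0.23 on the log2 scale, against -0.18 for all genes, and 45 of the 87 lay below the median of all genes. After median-of-ratios rescaling, which moves the median of all genes by 0.18, 2 neighbours were lower (Glyma.10G235300 and Glyma.15G142000) and 4 higher. Over all genes 669 were then lower and 1419 higher, against 1370 and 1041 without rescaling. The study, with DESeq2 and its own filter, reported more genes higher than lower at LP. That is the balance found here after rescaling, and the reverse of the one without it. The other neighbours counted as lower thus depend on the scaling. With 1 FPKM added in place of 0.1, 1 neighbour was lower and 1 higher. Without HP replicate 1 only 1 neighbour was lower and 1 higher, without HP replicate 2 the counts were 3 and 4, and 3 were lower without LP replicate 2 or LP replicate 3. Neighbours also lay at low levels, with a median of 1.18 FPKM at LP and 1.58 FPKM at HP, against 3.32 and 3.66 FPKM over all listed genes.

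**Figure D3:**
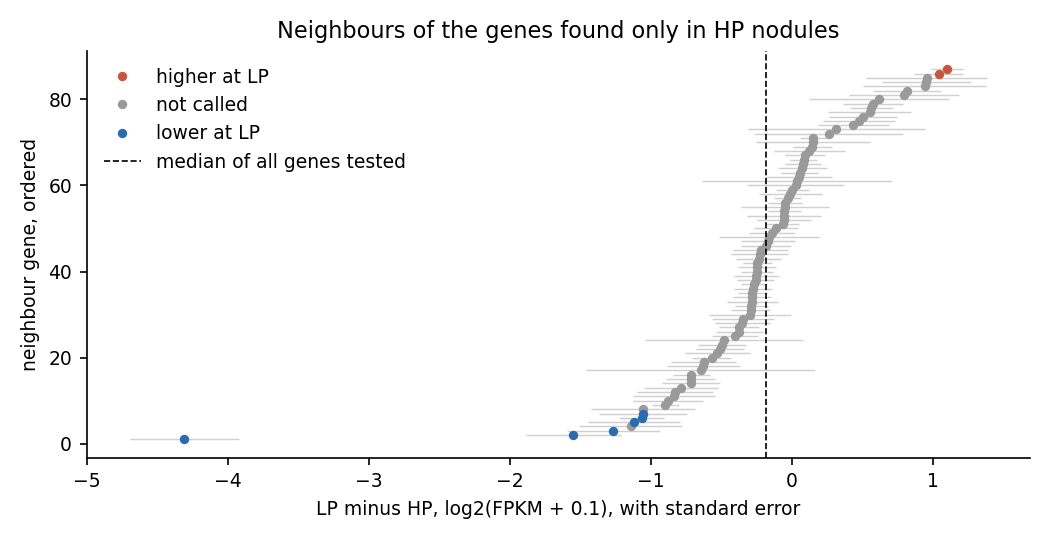
LP minus HP difference with its standard error (horizontal axis, log2(FPKM + 0.1)) of the 87 tested neighbours, ordered along the vertical axis. Blue points passed the test as lower at LP (6), red points as higher at LP (2), grey points did not pass, and the dashed line marks the median of all genes tested at -0.18.

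The neighbour with the largest difference was Glyma.15G142000, next to the evenly covered member Glyma.15G142100. It lies 3372 bases downstream on the same strand of chromosome 15 (11605472 to 11606204), has 1 exon like the member, and matches a hypothetical protein of Glycine soja in the supplement of the paper. It had 0, 1 and 1 fragments in the LP libraries, against 28, 57 and 31 in the HP libraries. These were 0, 0.0726 and 0.0721 FPKM at LP, against 2.1, 4.34 and 2.26 FPKM at HP, so both genes of this pair were at or close to 0 at LP and present in each HP library. The neighbour was lower at LP by the test, with a difference of -4.31 on the log2 scale (standard error 0.39, adjusted p = 3.64e-04 from limma), and the added 0.1 FPKM makes this fold smaller than the ratio of the levels. It reached the FPKM minimum through the HP libraries alone, so entry to the test leaned on the group in which it is high. In the fit with no minimum its difference was also -4.31 (adjusted p = 3.81e-04 from limma). It remained lower without each LP library, and it fell below the FPKM minimum with any HP library left out.

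A pair of the same layout lies on chromosome 8, named after its values were seen. Glyma.08G186000, a p24delta3-like protein by match, of a family that sorts cargo between the endoplasmic reticulum and the Golgi apparatus, lies 508 bases downstream of Glyma.08G186100 on the same strand. It had 0, 0.0994 and 0 FPKM in the LP libraries, against 1.23, 0.365 and 0.849 FPKM in the HP libraries, where the member itself had 0.269, 0.182 and 0.436 FPKM. HP replicate 2 was the lowest HP library for both. The neighbour lay below the FPKM minimum, and in the fit with no minimum its difference was -2.73 (standard error 0.47, adjusted p = 0.00692 from limma). Among the 108 neighbours with 10 or more HP fragments, these 2 (1.85%) had fewer LP fragments than a 10th of the HP number, as did 47 of 34818 such genes other than members in the whole series (0.135%). This criterion was chosen after the values were seen, and the shares were not tested against each other. Whether fragments of Glyma.08G186000 and Glyma.08G186100 were assigned across the short gap was not tested.

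**Figure D4:**
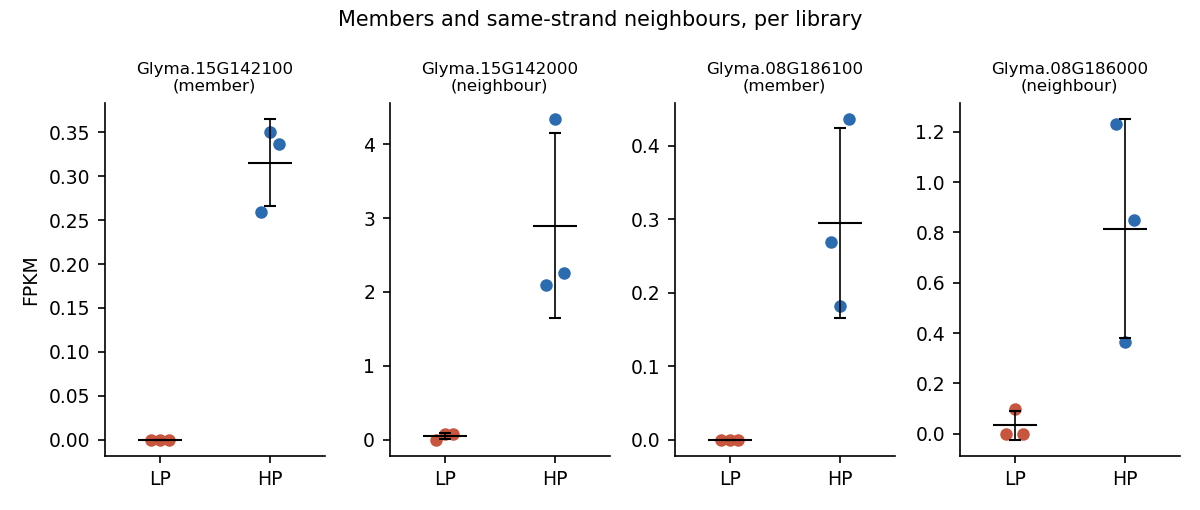
FPKM (vertical axis, a separate scale in each panel) of the members Glyma.15G142100 and Glyma.08G186100 and of their downstream neighbours, with LP libraries in red and HP libraries in blue. Points are libraries, horizontal lines are means and bars are SDs (n = 3 each), and in all 4 genes the LP points lie below the HP points.

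Members were close to each other in a single place. On chromosome 10, Glyma.10G235400, Glyma.10G235700 and Glyma.10G236000 lie within 29368 bases (46472588 to 46501955), with gaps of 18221 and 6642 bases, and the next closest members, Glyma.05G055200 and Glyma.05G056200, are 125030 bases apart. Glyma.10G235400 had no fragment in the LP libraries, against 1, 2 and 3 in the HP libraries. Glyma.10G235700 had none at LP, against 2, 1 and 2 at HP. Glyma.10G236000 had none at LP, against 5, 1 and 7 at HP, and was at least 4.38-fold lower at LP.

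Genes in and beside this stretch were found in every library. Glyma.10G235300, which encloses Glyma.10G235400 on the opposite strand and matches a titin-like protein, had 0.885, 0.801 and 0.498 FPKM in the LP libraries, against 2.57, 1.42 and 3.19 FPKM in the HP libraries, with no overlap between the treatments. It was lower at LP by the test, with a difference of -1.55 (standard error 0.34, adjusted p = 0.0144 from limma), but not without HP replicate 1 (adjusted p = 0.0546 from limma), and with 1 FPKM added its difference was -0.94, under 2-fold. HP replicate 2 was its lowest HP library, as for Glyma.10G235700 and Glyma.10G236000, and not for Glyma.10G235400. Glyma.10G235100, which lies outside the stretch and ends at 46455556, averaged 19.7 ± 2.09 FPKM at LP and 43.8 ± 3.08 FPKM at HP (SD, n = 3 each). It was lower at LP as well, with a difference of -1.15 (standard error 0.11, adjusted p = 5.15e-04 from limma), which became -0.97, under 2-fold, after median-of-ratios rescaling.

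Between the members, Glyma.10G235900 averaged 1.25 ± 0.143 FPKM at LP and 2.13 ± 0.415 FPKM at HP (SD, n = 3 each), a difference of -0.72 that was under 2-fold. Glyma.10G235800 had 5, 4 and 5 fragments in the LP libraries, against 8, 6 and 7 in the HP libraries, and lay below the FPKM minimum. In the fit with no minimum its difference was -0.48 (standard error 0.27, adjusted p = 0.246 from limma). Glyma.10G236100, on the far side, had a difference of -0.18, the value at the median of all genes (adjusted p = 0.469 from limma). Of the genes that lie in or reach into the 29368 bases, Glyma.10G235300 was the only one that passed the test.

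**Figure D5:**
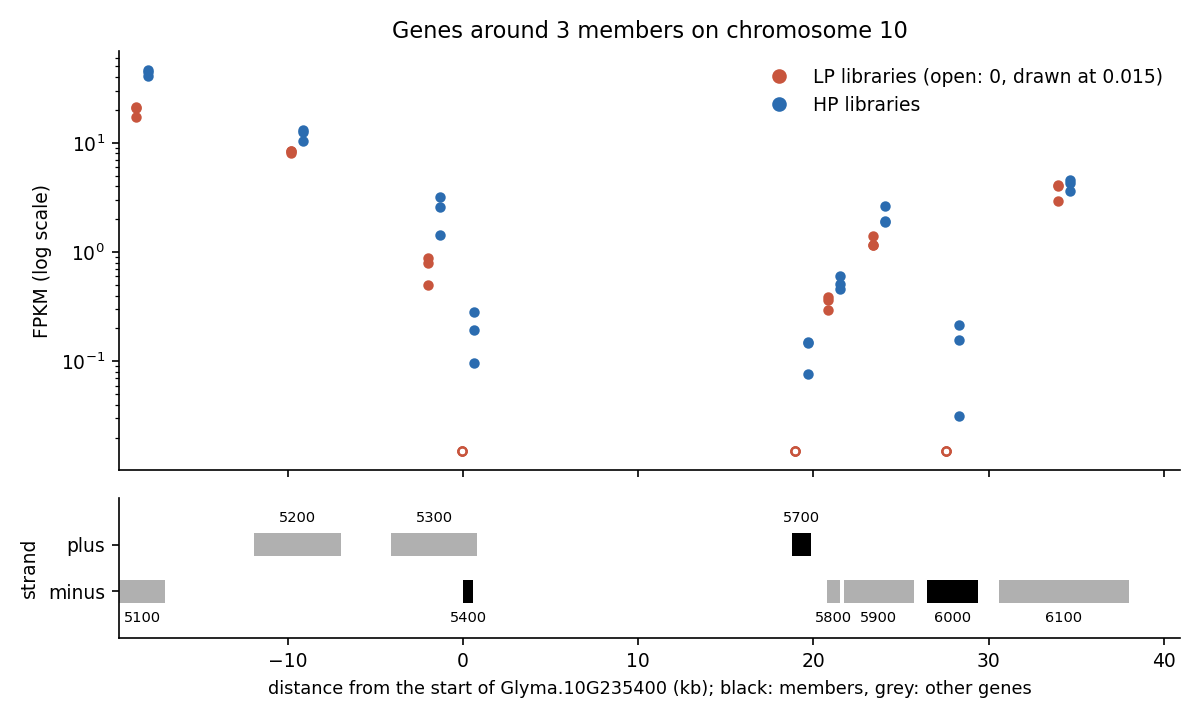
Upper panel, FPKM on a log scale of the genes around the 3 members on chromosome 10, with LP libraries in red (open where the value is 0, drawn near the foot of the panel because a log scale has no 0) and HP libraries in blue. Lower panel, gene spans by strand against distance from the start of Glyma.10G235400 in kb, members in black and other genes in grey, each with the last 4 characters of its ID. The 3 members are at 0 at LP, and Glyma.10G235300 lies lower in every LP library than in any HP library.

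Next to other members, Glyma.12G197200 averaged 4.47 ± 0.870 FPKM at LP and 9.33 ± 0.492 FPKM at HP (SD, n = 3 each), a difference of -1.06 that passed the test (adjusted p = 0.00331 from limma). It fell under 2-fold without LP replicate 3 (-0.90), after rescaling (-0.88) and with 1 FPKM added (-0.93). Its member, Glyma.12G197300, had no LP fragment, against 1, 2 and 2 at HP. This member was lowest in HP replicate 1, where Glyma.12G197200 was highest. Glyma.07G059200, beside the member with the most fragments by the smallest fit, had 0.302, 0.388 and 0.566 FPKM at LP, against 1.55, 1.11 and 0.807 FPKM at HP. Its difference was -1.27 (adjusted p = 0.0271 from limma). The adjusted p was above 0.05 without HP replicate 1 (0.0980), HP replicate 2 (0.0620), LP replicate 1 (0.0710) or LP replicate 2 (0.0781), and after rescaling (0.0504), while the difference stayed over 2-fold in each of these, between -1.05 and -1.27. With 1 FPKM added the difference of Glyma.07G059200 was -0.59, under 2-fold. HP replicate 1 was the highest HP library for this neighbour and for the member. The highest HP library matched in some pairs and not in others, and this was not tested.

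The other neighbours that were lower at LP passed narrowly. Glyma.06G006100 (difference -1.05, adjusted p = 0.0410 from limma) follows Glyma.06G006000, which had no LP fragment, against 1, 5 and 1 at HP. This member was highest in HP replicate 2, where Glyma.06G006100 was lowest among the HP libraries. With 1 FPKM added the difference of Glyma.06G006100 was -0.65, under 2-fold. The call was lost without HP replicate 1 (0.122), HP replicate 3 (0.107), LP replicate 2 (0.0825) or LP replicate 3 (0.0785), and after rescaling (0.0772), with differences between -0.74 and -1.14. Glyma.06G031300 (difference -1.12, adjusted p = 0.0405 from limma) precedes Glyma.06G031400, which had no LP fragment, against 1, 3 and 1 at HP. Glyma.06G031300 reached the FPKM minimum through the HP libraries alone, so it could not be tested without an HP library. In the fit with no minimum its adjusted p was also 0.0405 from limma. The adjusted p was 0.0694 with LP replicate 1 left out, 0.0792 with LP replicate 2 left out and 0.101 with LP replicate 3 left out. After rescaling it was 0.0717, and the differences in these settings lay between -0.96 and -1.21. With 1 FPKM added its difference was -0.45, under 2-fold.

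Both neighbours that were higher at LP lay beside members with 12 or 13 HP fragments. Glyma.18G244500, 6154 bases from Glyma.18G244600 on the opposite strand, had 54.5, 46.2 and 48.1 FPKM in the LP libraries, against 22.5, 20.9 and 25.7 FPKM in the HP libraries. Its difference was 1.10 (standard error 0.12, adjusted p = 6.71e-04 from limma). Glyma.02G051400, an uncharacterized protein by match that lies 3111 bases upstream of Glyma.02G051300 on the same strand, averaged 4.47 ± 0.717 FPKM at LP and 2.11 ± 0.278 FPKM at HP (SD, n = 3 each). Its difference of 1.04 fell under 2-fold without HP replicate 1 (0.94) or LP replicate 1 (0.93), and with 1 FPKM added (0.81). In both places the member had no LP fragment while the gene beside it was higher at LP. Beside Glyma.20G027700, 33990 bases away on the same strand, Glyma.20G027900 was one of the 87 genes found only at LP, with 0.578, 0.136 and 0.0903 FPKM in the LP libraries, against 0 FPKM in each HP library, and LP replicate 1 was its highest.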

How the data were processed

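Nodule RNA of 3 LP and 3 HP libraries was analysed. The authors removed adaptors and low-quality reads, built the index with Bowtie2 2.2.3, aligned reads to Wm82.a2.v1 with HISAT2 2.1.0 and deposited FPKM values of genes above 0, per library and not pooled. Cufflinks is named for abundance, and DESeq2 1.6.3 was used by the authors for their own test. The strand setting is not given in the sources used here.

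A gene not listed was taken as 0. The total of each library was read from the FPKM values of genes whose length equals their span, of which 287 to 334 per library gave the same whole number for 1 fragment. Each gene was then given the smallest whole fragments and length that fit (relative tolerance 1e-09), which recovered 99.7% of the totals. Differences (LP minus HP) were fitted with limma 3.58.1 (R 4.3.3, statmod 1.5.0, eBayes with trend and robust) on log2(FPKM + 0.1), two-sided, with Benjamini-Hochberg adjustment over 31181 genes. Joins used pandas 2.3.3 under Python 3.11.15, and plots matplotlib 3.10.9. The code was tested on simulated data. P-values measure the spread between these pools.

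Members and lists were chosen with earlier results of these data known. Named genes were the 12 members with the highest HP FPKM, the 12 with the most fragments, members within 100 kb of another, members whose neighbour passed the test, and genes just outside the rule. Glyma.08G186000, Glyma.20G027900, overlapping genes, the members with 1 fragment in each HP library, those on scaffolds, the next closest pair of members and the other genes around the chromosome 10 members were named after their values were seen. The tables at hand pair none of the members with a name, a description or a sequence. Closest paralogs and markers of other tissues, which need proteins or descriptions, were therefore not analysed here. Descriptions of neighbours come from the protein matches in the supplement of the paper, which covers part of the genes.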

Additional observations from a re-analysis of the deposited data

How the results depend on the processing

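The number of members depended on the rule. It was 10 with at least 0.1 FPKM in all HP libraries, 252 with under 0.05 FPKM allowed at LP, 251 with at least 2 of 3 HP libraries, and 108 to 156 with 1 library left out. Adding 1 in place of 0.1 FPKM gave 602 genes lower, against 751 higher (1370 and 1041 as reported), with 1 neighbour lower and 1 higher. Median-of-ratios rescaling gave 669 genes lower and 1419 higher, with 2 neighbours lower and 4 higher. With 1 library left out, 1001 to 1442 genes were lower and 726 to 1146 higher, and 1 to 6 neighbours were lower and 1 to 4 higher. Adding 0.01 FPKM, no minimum and a minimum of 1 FPKM kept these counts within 1.5 times. The same-numbered libraries did not pair (correlations of their deviations 0.17, -0.02 and -0.15). With the replicate number as a block, 1288 genes were lower and 1046 higher, 5 of 87 neighbours lower and 2 higher, and Glyma.06G006100 and Glyma.07G059200 did not pass (adjusted p = 0.0583 and 0.0615 from limma). Of the alternatives run for the 8 neighbours that passed, 61 kept the call and 27 lost it, none with the direction turned, and Glyma.15G142000 and Glyma.18G244500 kept it wherever they could be fitted. The paralog comparisons were not run. By the rule, a single LP fragment ends membership, and whether more depth would give one was not tested.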
